A study of Homo sapiens with 4 samples.

Results

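Genes of the respiratory chain, of the ATP synthase and of the mitochondrial carrier family were followed in LS411N-5FU-R cells, a human colon carcinoma line selected to survive the antimetabolite 5-fluorouracil (5-FU), a standard drug in colorectal cancer. Members were the protein-coding genes whose symbol begins with NDUF, UQCR, COX and a digit, ATP5 or SLC25A, or with SDH followed by A to D or AF. RefSeq holds 157 such genes in the nuclear genome and 3 in the mitochondrial genome. Of these 160 genes, 39 had an annotated probe set and were analysed, among 14884 genes in all. The treated arrays came from resistant cells grown with verticillin A at 50 nM over 3 days, an epipolythiodioxopiperazine made by fungi (2 arrays), and the others from the same resistant cells kept for 3 days without it, at 0 nM (2 arrays). Resistance to 5-FU is shared by both groups, and the comparison holds 1 cell line. The series is concerned with histone H3 lysine 9 trimethylation, FAS, immune escape and 5-FU resistance.

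The respiratory chain is built in the inner mitochondrial membrane. Complex I and complex II pass electrons from NADH and succinate to ubiquinone, complex III passes them on to cytochrome c, and complex IV, cytochrome c oxidase, hands them to oxygen. Complexes I, III and IV pump protons, and the ATP synthase lets these protons flow back to make ATP. Most subunits are encoded in the nucleus, a small catalytic set in mitochondrial DNA, and dedicated assembly factors insert haem, copper, flavin and iron-sulphur centres. Carriers of the SLC25 family exchange nucleotides, phosphate, carboxylates and amino acids across the same membrane.

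The 39 genes cover the system unevenly. All 17 nuclear genes for complex IV subunits and their isoforms with COX symbols were measured, along with 6 of 9 complex IV assembly factors, 5 of 9 complex III subunits and all 4 complex II assembly factors. Of complex I, 2 of 8 assembly factors were measured, and the 7 core and 31 accessory subunit genes were not analysed here. The same holds for the 4 complex II subunits. Of the ATP synthase, 3 of 20 genes were measured. Among the carriers, 2 of 15 carrying carboxylates, amino acids or carnitine were measured, and the 19 carriers of nucleotides, phosphate and cofactors and the 14 with other substrates were not analysed here. The name of the group therefore fits complex IV best, and says little of complex I or of the carriers.

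Arrays of 1 group correlated across probe sets at r = 0.995 for verticillin A and 0.994 for the control, and arrays of different groups at 0.990 to 0.992. Epithelial identity was checked on 10 measured markers. EPCAM stood at log2 levels of 10.94 and 10.94 with verticillin A, against 11.09 and 11.13 in the control, and CLDN7 at 10.62 and 10.65 with verticillin A, against 10.92 and 10.97 in the control. Of the 10 epithelial markers, the keratin gene KRT19 was called higher (0.44 on the log2 scale, adjusted p = 0.0493 in limma) and the villin gene VIL1 lower (-0.62, adjusted p = 0.0167 in limma), and their part in the results below was not tested. The colonic markers CDX1, CEACAM5 and KRT20 were dim, with mean levels below 5 on the log2 scale. CDX2 had a mean level of 5.28 and VIL1 of 5.85, beside a median of 5.84 over all genes. Of the markers of leukocytes, fibroblasts and endothelium, CD14, DCN, PECAM1 and VWF were measured, with means over the 4 arrays of 3.45 to 3.95. No detection calls were used, so such low values cannot be separated from background.

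Verticillin A raised 7 of the 39 genes and lowered 0. These were the complex IV subunits COX7B, COX8A, COX6B1 and COX5A, the copper chaperone of complex IV COX17, the complex I assembly factor NDUFAF8 and the ATP synthase subunit ATP5MJ, each 1.29-fold to 1.46-fold higher. A gene was called when its p in limma's moderated test, adjusted by the Benjamini-Hochberg method over all 14884 genes, fell under 0.05. The 7 called members are 17.9% of the 39, above the 3.55% of all genes that the same rule called higher, and the 0 members called lower compare with 5.1% of all genes. After each array was centred on its median, the same 7 members were called, beside 5.04% of all genes higher and 4.49% lower. At an unadjusted p under 0.05, 14 members were higher and 1 was lower in limma. The same threshold in limma gave 1785 genes higher and 2185 lower among all 14884. Bright genes were called more often. At or above the median level, 7 of 28 members (25%) were called higher and 0 lower, against 5.94% higher and 8.63% lower among all genes of that brightness. A difference in every cell and a difference in the share of cells with more of the RNA cannot be told apart in these bulk samples. Whichever array was left out, 0 members were called, with a lowest adjusted p among members of 0.0957 and 0.0684 without verticillin A replicates 1 and 2, and 0.0743 and 0.0877 without control replicates 1 and 2.

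**Figure D1:**
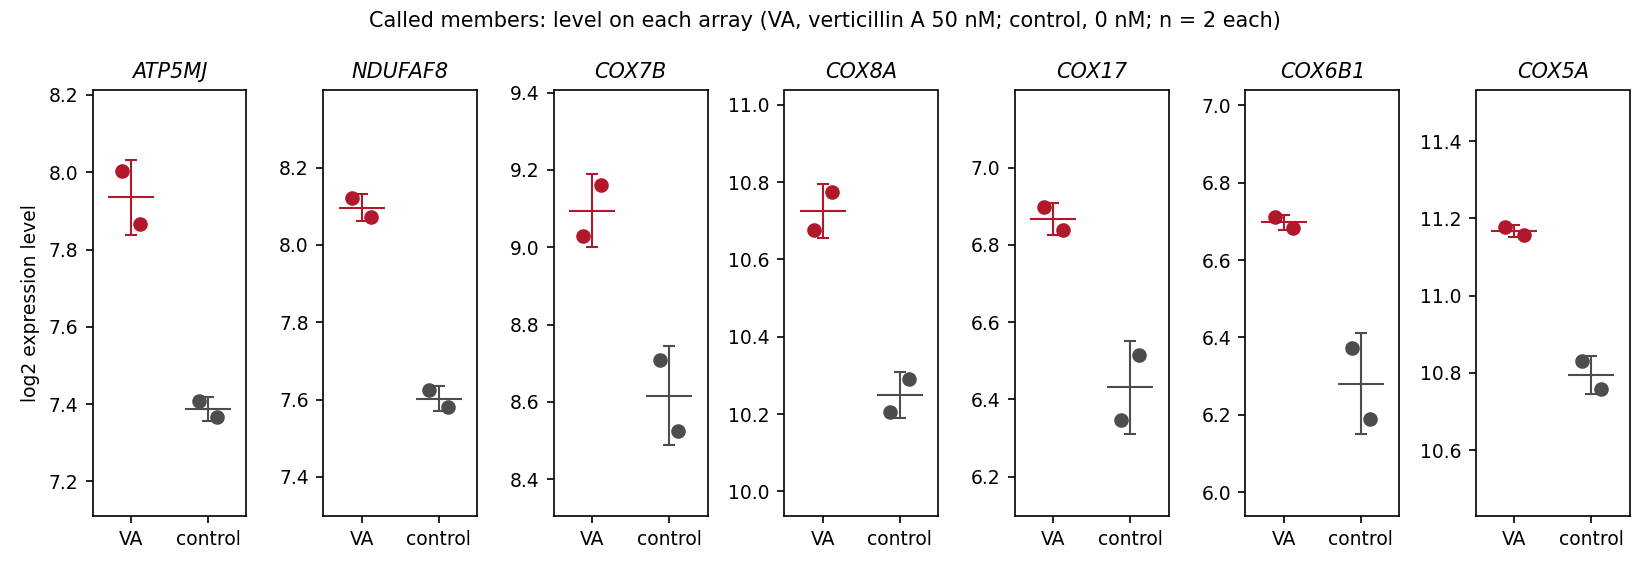
Log2 expression level of the 7 called genes on each array, with verticillin A (50 nM, red) left of the control (0 nM, grey); points are arrays, the horizontal mark is the mean and the bar is the SD of 2 arrays. Each vertical axis spans the same log2 range around its own gene. Both treated arrays lie above both control arrays in all 7 genes, an arrangement held by 25.7% of all genes. The 7 were picked on these same arrays by their adjusted p, which nearly fixes that arrangement in advance.

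Over the 39 genes the log2 change, verticillin A minus control, ran from -0.29 to 0.55 with a median of 0.09, while the median over all genes was -0.01. The change was positive in 28 members and negative in 11 (71.8% positive, against 48.5% of all genes). Both treated arrays lay above both control arrays in 20 members, while 25.7% of all genes had that arrangement, and below both in 6 members, which 29.1% of all genes had. At or above the median level, they lay above in 17 of 28 members and below in 3. Of all 7442 genes of that brightness, 2400 (32.2%) had them above and 2751 below. In the 28 members at or above the median level of all genes the median change was 0.17, and in the 11 dimmer ones it was 0.01. The members were not a random draw of genes, and these counts carry no test.

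**Figure D2:**
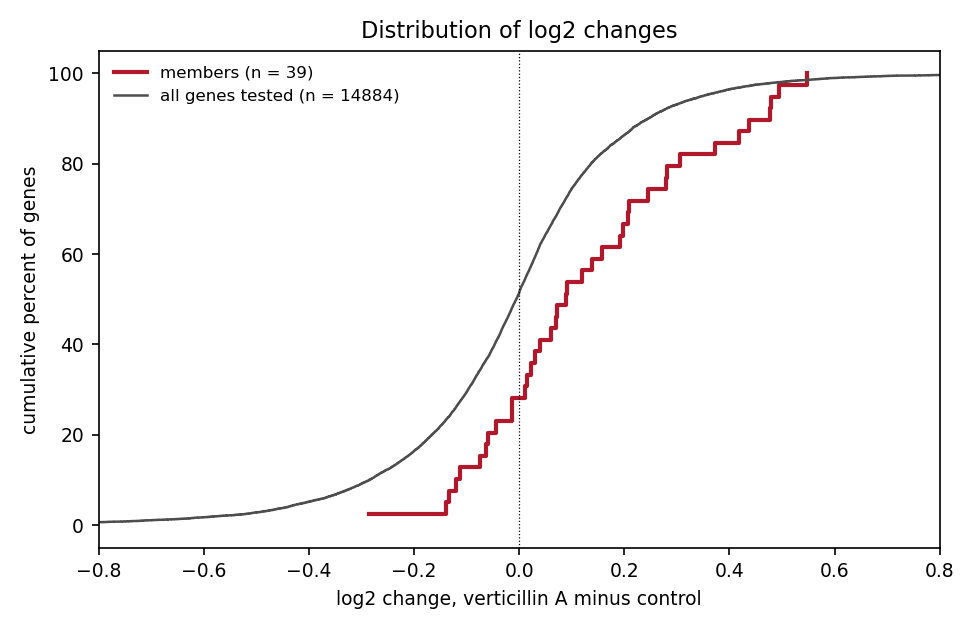
Cumulative percent of genes against the log2 change, verticillin A minus control, for the 39 members (red) and all 14884 genes tested (grey). The members' curve lies to the right of the other over most of its course, with medians of 0.09 for the members and -0.01 for all genes, and ends at 0.55.

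Of the 17 complex IV subunit genes, 4 were called higher (23.5%, against 3.55% of all genes) and 0 lower (against 5.1% of all genes). COX7B, a small membrane subunit needed for assembly of the enzyme, had log2 levels of 9.03 and 9.16 with verticillin A, against 8.71 and 8.53 in the control. Both treated arrays were above both control arrays, as a call on so few arrays nearly requires. COX7B rose by 0.48 ± 0.09 on the log2 scale (SE, 1.39-fold, adjusted p = 0.0421 in limma). COX8A, a subunit that crosses the membrane in a single span, stood at 10.68 and 10.77 with verticillin A, against 10.21 and 10.29 in the control. The groups did not overlap, and the change was 0.48 ± 0.08 (1.39-fold, adjusted p = 0.0275 in limma). COX6B1, which faces the intermembrane space and takes part in the contact between the monomers of the complex IV dimer, had levels of 6.71 and 6.68 with verticillin A, against 6.37 and 6.19 in the control. Its control arrays differed more from each other than its treated arrays did, and it passed narrowly (0.42 ± 0.09, 1.34-fold, adjusted p = 0.0466 in limma). COX5A, a subunit on the matrix side, was at 11.18 and 11.16 with verticillin A, against 10.83 and 10.76 in the control (0.37 ± 0.07, 1.29-fold, adjusted p = 0.0364 in limma).

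The subunits used in most tissues, a sorting made with the values known, were all on the positive side. These are COX4I1, COX5A, COX5B, COX6A1, COX6B1, COX6C, COX7A2, COX7B, COX7C and COX8A, and all 10 had a positive log2 change, of 0.04 to 0.48, with a median of 0.28. Of all genes at or above the median level, where these 10 lie, 47.7% had a positive change. Of the 10, 4 passed (40%, against 5.94% of those bright genes called higher). Without control replicate 1, 9 of the 10 were positive. COX4I1, which with COX5A enters the enzyme early, came nearest to passing among the rest, at 12.81 and 12.82 with verticillin A, against 12.54 and 12.59 in the control (0.25 ± 0.07, adjusted p = 0.0846 in limma). Its groups did not overlap. COX7A2, the widely used form of subunit 7A, was at 9.12 and 9.21 with verticillin A, against 8.76 and 8.95 in the control (0.31 ± 0.09, adjusted p = 0.1 in limma). The smallest changes were those of COX7C (0.04, limma 95% interval -0.14 to 0.22), COX6A1 (0.07, -0.11 to 0.25) and COX5B (0.09, -0.11 to 0.29), and for these genes the intervals still admit a rise of 0.2 on the log2 scale. COX6C, at 0.14 (-0.08 to 0.36), lay between. COX6A1 has a pair of probe sets, one at 12.31 and 12.35 with verticillin A against 12.21 and 12.31 in the control, the other at 6.51 and 6.73 with verticillin A against 6.62 and 6.44 in the control, with changes of 0.07 and 0.09. The brighter one represents COX6A1 in the counts here. It may read a processed copy of the gene, which was not tested, so its level cannot be credited to COX6A1 alone.

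Of the 6 forms restricted to particular tissues, 0 passed in limma and 1 had an unadjusted p under 0.05. COX4I2 (lung), COX6A2 and COX7A1 (heart and skeletal muscle), and COX6B2, COX7B2 and COX8C (testis) had levels of 3.58 to 4.94 over the 4 arrays, all below the median level of 5.84 over all genes. Of these forms, 2 had positive and 4 negative changes, with a median of -0.03. COX6A2 had 3.92 and 3.66 with verticillin A, against 4.01 and 4.15 in the control, the only member at an unadjusted p under 0.05 on the negative side (-0.29 ± 0.11, adjusted p = 0.178 in limma). COX6B2 had 4.12 and 4.30 with verticillin A, against 4.0 and 4.04 in the control (0.19 ± 0.08, adjusted p = 0.225 in limma). COX7A2L, which links complexes III and IV into supercomplexes, was at 7.93 and 7.96 with verticillin A, against 8.10 and 8.06 in the control. Its treated arrays lay below both control arrays, at a change of -0.14 ± 0.07 (adjusted p = 0.267 in limma). The sorting into widely used and restricted forms follows textbook knowledge and was made with the values known. It also divides bright genes from dim ones, since the widely used forms had mean levels of 6.49 or more. Form and brightness therefore cannot be told apart here.

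**Figure D3:**
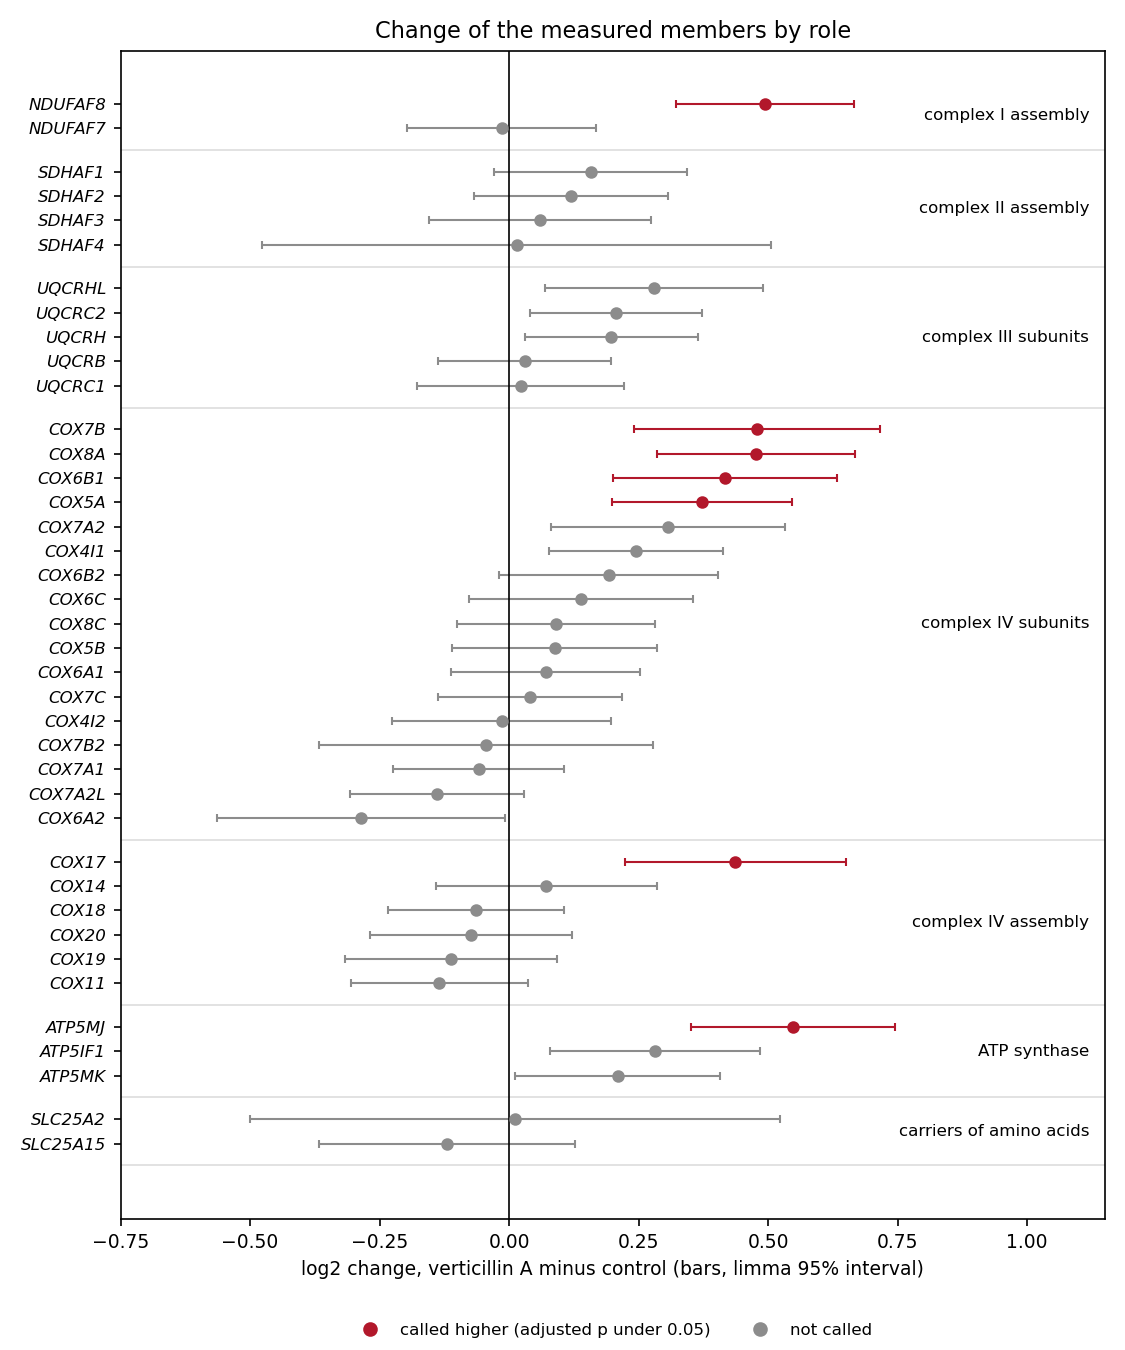
Log2 change of each of the 39 genes, verticillin A minus control, by role; points are limma estimates and bars limma 95% intervals, red where the adjusted p was under 0.05. The 7 red points lie between 0.37 and 0.55, 4 of them complex IV subunits, and the lowest point is COX6A2 at -0.29.

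Among the complex IV assembly factors 1 of 6 passed (16.7%, against 3.55% of all genes called higher). COX17, the chaperone that passes copper to SCO1 and COX11 in the intermembrane space, had levels of 6.90 and 6.84 with verticillin A, against 6.35 and 6.52 in the control. The groups did not overlap, and the change was 0.44 ± 0.08 (1.35-fold, adjusted p = 0.0407 in limma). COX11, which inserts copper into the COX1 subunit, was at 8.10 and 8.08 with verticillin A, against 8.19 and 8.26 in the control (-0.13 ± 0.07, adjusted p = 0.292 in limma). COX19, a partner of COX11, had a change of -0.11 ± 0.08, COX20, a chaperone of the COX2 subunit, -0.07 ± 0.08, COX18, which inserts COX2 into the membrane, -0.06 ± 0.07, and COX14, which works on newly made COX1, 0.07 ± 0.09. Besides COX17 the assembly factors thus had 4 negative changes and 1 positive, of which 0 passed in limma and 0 had an unadjusted p under 0.05.

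Complexes I, II and III and the ATP synthase were represented by fewer genes. NDUFAF8, an assembly factor that stabilises its partner NDUFAF5 in the building of complex I, was at 8.12 and 8.07 with verticillin A, against 7.62 and 7.58 in the control (0.49 ± 0.07, 1.41-fold, adjusted p = 0.0206 in limma). Arrays of the same group lay close together, and this gene had the lowest adjusted p of the 39. NDUFAF7, a methyltransferase that acts on a core subunit of complex I, had 8.65 and 8.69 with verticillin A, against 8.73 and 8.63 in the control, and the groups overlapped (-0.01 ± 0.07, limma 95% interval -0.20 to 0.17). Of the complex II assembly factors, SDHAF1 and SDHAF3, which serve the iron-sulphur subunit, had changes of 0.16 ± 0.07 and 0.06 ± 0.09, and SDHAF2 and SDHAF4, which serve the flavin subunit, 0.12 ± 0.07 and 0.01 ± 0.20. In limma 0 of these 4 passed and 0 had an unadjusted p under 0.05. SDHAF1 and SDHAF4 lay below the median level of all genes.

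All 5 complex III genes had positive changes (4 of 5 without control replicate 1), and 0 passed in limma, with 3 at an unadjusted p under 0.05. All 5 lay above the median level, where limma gave 1313 of 7442 genes higher and 1611 lower at that unadjusted threshold. Of those 7442 genes, 47.7% had a positive change. UQCRC2, a core protein of the complex, stood at 11.87 and 11.91 with verticillin A, against 11.68 and 11.68 in the control (0.21 ± 0.07, adjusted p = 0.122 in limma). UQCRH, the hinge protein that contacts cytochrome c1, had 6.60 and 6.64 with verticillin A, against 6.43 and 6.42 in the control (0.20 ± 0.07, adjusted p = 0.135 in limma). UQCRHL, its near-identical copy, had 8.80 and 8.98 with verticillin A, against 8.61 and 8.62 in the control (0.28 ± 0.08, adjusted p = 0.105 in limma). Probes may share RNA between these copies, so neither value can be credited to 1 of them. UQCRC1, the other core protein, and UQCRB, which helps form the ubiquinone site, had changes of 0.02 (-0.18 to 0.22) and 0.03 (-0.14 to 0.20).

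In all 3 measured ATP synthase genes both treated arrays lay above both control arrays, and 1 of the 3 was called. That arrangement held in 32.2% of all genes at or above the median level, where these 3 lie. Of those genes, 5.94% were called higher. ATP5MJ, a small proteolipid associated with the membrane part of the enzyme, had levels of 8.0 and 7.87 with verticillin A, against 7.41 and 7.37 in the control. With a change of 0.55 ± 0.08 (1.46-fold, adjusted p = 0.0218 in limma) it was the largest of the 39. ATP5IF1, the inhibitor that stops the enzyme from running backwards, had 7.15 and 7.06 with verticillin A, against 6.89 and 6.76 in the control (0.28 ± 0.08, adjusted p = 0.096 in limma). ATP5MK, a further small membrane subunit, had 10.29 and 10.28 with verticillin A, against 10.00 and 10.15 in the control (0.21 ± 0.08, adjusted p = 0.167 in limma). The catalytic subunits were not analysed here. The carriers SLC25A15 and SLC25A2 both move ornithine into mitochondria. SLC25A15 had 7.33 and 7.54 with verticillin A, against 7.5 and 7.62 in the control, with overlapping groups (-0.12 ± 0.10, adjusted p = 0.515 in limma). SLC25A2 was dim, at 3.68 and 4.32 with verticillin A, against 4.01 and 3.97 in the control.

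Several members have processed copies in the genome whose RNA or sequence array probes may share. Among the called genes, RefSeq lists 7 pseudogenes named after COX6B1, 4 after COX7B, 2 after COX5A, 1 after COX17 and 0 after COX8A, NDUFAF8 and ATP5MJ. Of the others, COX6C has 18, COX5B 8 and COX6A1 6. What these copies add to the signal was not tested.

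The promoters of 4 called genes are shown because the called genes moved in the same direction. Those of ATP5MJ, NDUFAF8 and COX6B1 are not printed. For 32 of the 39 genes RefSeq gave a start site on a main chromosome, in 40 windows of 250 bases upstream of a start, and the rest (COX11, COX4I2, COX6C, COX7A1, SLC25A2, UQCRB and UQCRHL) had no entry used here. Letters were searched on both strands for motifs of factors known to act on nuclear genes of the respiratory chain, namely GCGCATGCG (nuclear respiratory factor 1, NRF1), CCGGAAGT (ETS factors such as the GABP complex), AAGATGGCG (YY1) and GGGCGG (SP factors). Capitals mark any of these in the sequences, read 5′ to 3′ on the strand of the gene, with the last base next to the start site.
COX8A (GRCh38.p14 chr11:63974370-63974619, plus strand): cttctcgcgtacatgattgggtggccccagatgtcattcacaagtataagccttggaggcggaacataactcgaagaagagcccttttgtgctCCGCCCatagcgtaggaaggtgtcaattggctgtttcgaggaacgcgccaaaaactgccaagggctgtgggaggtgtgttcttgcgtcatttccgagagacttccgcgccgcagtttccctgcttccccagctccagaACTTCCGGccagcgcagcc
COX17 (GRCh38.p14 chr3:119677407-119677656, minus strand): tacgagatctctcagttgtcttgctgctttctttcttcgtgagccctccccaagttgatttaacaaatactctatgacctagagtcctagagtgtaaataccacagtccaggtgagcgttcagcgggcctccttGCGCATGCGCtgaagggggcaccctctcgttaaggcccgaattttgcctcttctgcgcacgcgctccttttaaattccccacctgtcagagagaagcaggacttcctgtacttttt
COX5A (GRCh38.p14 chr15:74938074-74938323, minus strand): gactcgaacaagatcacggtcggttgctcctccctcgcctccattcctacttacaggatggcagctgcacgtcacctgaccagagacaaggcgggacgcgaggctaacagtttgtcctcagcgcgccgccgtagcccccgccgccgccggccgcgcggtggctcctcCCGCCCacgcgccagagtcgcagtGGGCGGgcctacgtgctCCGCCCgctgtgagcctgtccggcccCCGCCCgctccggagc
COX7B (GRCh38.p14 chrX:77899218-77899467, plus strand): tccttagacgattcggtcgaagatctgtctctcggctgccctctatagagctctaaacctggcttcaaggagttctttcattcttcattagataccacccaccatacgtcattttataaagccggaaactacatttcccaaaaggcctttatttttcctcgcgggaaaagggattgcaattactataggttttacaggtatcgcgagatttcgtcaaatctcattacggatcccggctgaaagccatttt
In COX8A the ETS letters begin 19 bases before the start, and an SP motif lies further upstream. In COX17 the NRF1 letters, which match on both strands there with an overlap, begin 116 bases before the start shown, which is the upstream one of its pair of listed starts. The window of the other COX17 start, not printed, holds SP motifs and no NRF1 letters. COX5A holds 4 SP motifs, and COX7B holds 0 of the 4 kinds in this window. Over the called genes, 1 of 7 held the NRF1 letters, 1 of 7 the ETS letters, 0 the YY1 letters and 5 of 7 an SP motif. A gene was counted here when any of its windows held the letters. Counted the same way over all 32 genes, 22 held an SP motif, 5 the ETS letters, 3 the NRF1 letters and 0 the YY1 letters. The shares that follow are of windows, a different measure. Over the 40 member windows, 25 held an SP motif (62.5%), 5 the ETS letters (12.5%), 3 the NRF1 letters (7.5%) and 0 the YY1 letters. The SP motif stood in 53.7% of the windows of all protein-coding genes, the ETS letters in 4.41%, the NRF1 letters in 2.05% and the YY1 letters in 0.748%. A match is a description of letters, and these windows were not tested for binding.

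Some members start close to a gene that runs the other way. Whether such pairs share a promoter was not tested. UQCRH and LRRC41, an adaptor of a ubiquitin ligase, start 82 bases apart on opposite strands. LRRC41 had 8.91 and 8.90 with verticillin A, against 9.21 and 9.20 in the control (-0.30 ± 0.07, adjusted p = 0.0524 in limma), while UQCRH had a change of 0.20 ± 0.07, so the 2 estimates have opposite signs and neither was called. The 81 bases between the starts, on the UQCRH strand and with the ETS letters in capitals, are given because they lie upstream of both genes.
UQCRH and LRRC41 (GRCh38.p14 chr1:46303617-46303697, plus strand): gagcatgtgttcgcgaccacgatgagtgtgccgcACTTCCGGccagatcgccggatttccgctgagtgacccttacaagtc
COX4I1 and EMC8, a subunit of a membrane protein insertase, start 151 bases apart, and EMC8 had a change of 0.19 ± 0.07 (adjusted p = 0.158 in limma) beside 0.25 ± 0.07 for COX4I1. NDUFAF8 lies head to head with TEPSIN, an adaptor protein of vesicle coats, at 256, 263 or 859 bases depending on the start taken. TEPSIN had a change of 0.28 ± 0.07 (adjusted p = 0.0727 in limma). ATP5MK starts 151 bases from PDCD11, a ribosome biogenesis factor with a change of -0.01 ± 0.07. The differences within these pairs were not tested.

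Other genes of mitochondrial energy metabolism were read from lists made with earlier results of these data known. Of 29 measured subunits and assembly factors with other symbols, 2 rose and 1 fell, at a median log2 change of 0.08. The 6.90% called higher are near the 5.94% of all genes at or above the median level, so the list's calls stand close to the background. COA3, a partner of COX14 in the handling of new COX1, had 8.60 and 8.48 with verticillin A, against 7.94 and 7.92 in the control (0.61 ± 0.07, adjusted p = 0.0163 in limma). COA6, a copper-handling factor for COX2, rose by 0.46 ± 0.08 (adjusted p = 0.0296 in limma), and COA5, an early assembly factor of complex IV, fell by 0.46 ± 0.09 on the log2 scale (adjusted p = 0.0442 in limma). Of 18 listed regulators of mitochondrial biogenesis, 7 were measured. Among all genes 3.55% were called higher, and among those at or above the median level 5.94%. Of the 7 regulators, 2 rose and 0 fell. These were POLRMT, the RNA polymerase of mitochondria (0.52 ± 0.07, adjusted p = 0.0194 in limma), and ESRRA, a nuclear receptor that acts on respiratory genes, which had 5.20 and 5.24 with verticillin A, against 4.89 and 4.84 in the control (0.36 ± 0.07, adjusted p = 0.0377 in limma). ESRRA was not called with a mean-variance trend (adjusted p = 0.0727 in limma), and the filter on dim genes left it out.

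Of 22 measured genes of outer membrane channels, import and uncoupling, 3 rose (13.6%, against 5.94% of all genes at or above the median level) and 0 fell, at a median of 0.18. VDAC3, a channel for metabolites, rose by 0.44 ± 0.07, TOMM6, a small subunit of the import pore, by 0.40 ± 0.08, and TOMM40, the pore itself, by 0.36 ± 0.07 (adjusted p = 0.0282, 0.0479 and 0.04 in limma). The tricarboxylic acid cycle and pyruvate entry list had 13 measured genes, of which 0 passed in limma and 5 had an unadjusted p under 0.05, at a median of 0.09. All 5 were higher. Among the 7442 genes at or above the median level, 2924 had such a p in limma, 1313 higher and 1611 lower. Counted in both directions, the list's share is close to that of these bright genes. IDH3B, a subunit of isocitrate dehydrogenase, had a change of 0.39 ± 0.09 (adjusted p = 0.0571 in limma) and MPC2, of the pyruvate carrier, 0.34 ± 0.08 (adjusted p = 0.064 in limma). Whichever array was left out, 0 of the 8 genes called in these lists stayed called, with a lowest adjusted p of 0.0835 and 0.0587 without verticillin A replicates 1 and 2, and 0.0716 and 0.0838 without control replicates 1 and 2. TOMM6 was also lost after quantile normalization and TOMM40 when its probe sets were averaged (log2 changes of 0.39 and 0.004, adjusted p = 0.0514 and 0.985 in limma). TOMM40 has 2 probe sets, so its rise rests on the brighter one, and the other changed in the opposite direction.

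Over the 10 alternatives run, each of the 7 changes stayed positive, between 0.32 and 0.62 on the log2 scale. ATP5MJ ranged from 0.48 to 0.62, NDUFAF8 from 0.47 to 0.53 and COX8A from 0.43 to 0.53. COX6B1, with its unlike control arrays, ranged from 0.32 without control replicate 2 to 0.51 without control replicate 1, and missed the threshold after quantile normalization as well. Since the 7 were picked on these very arrays for a small spread, their steady size is no check of the calls.

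**Figure D4:**
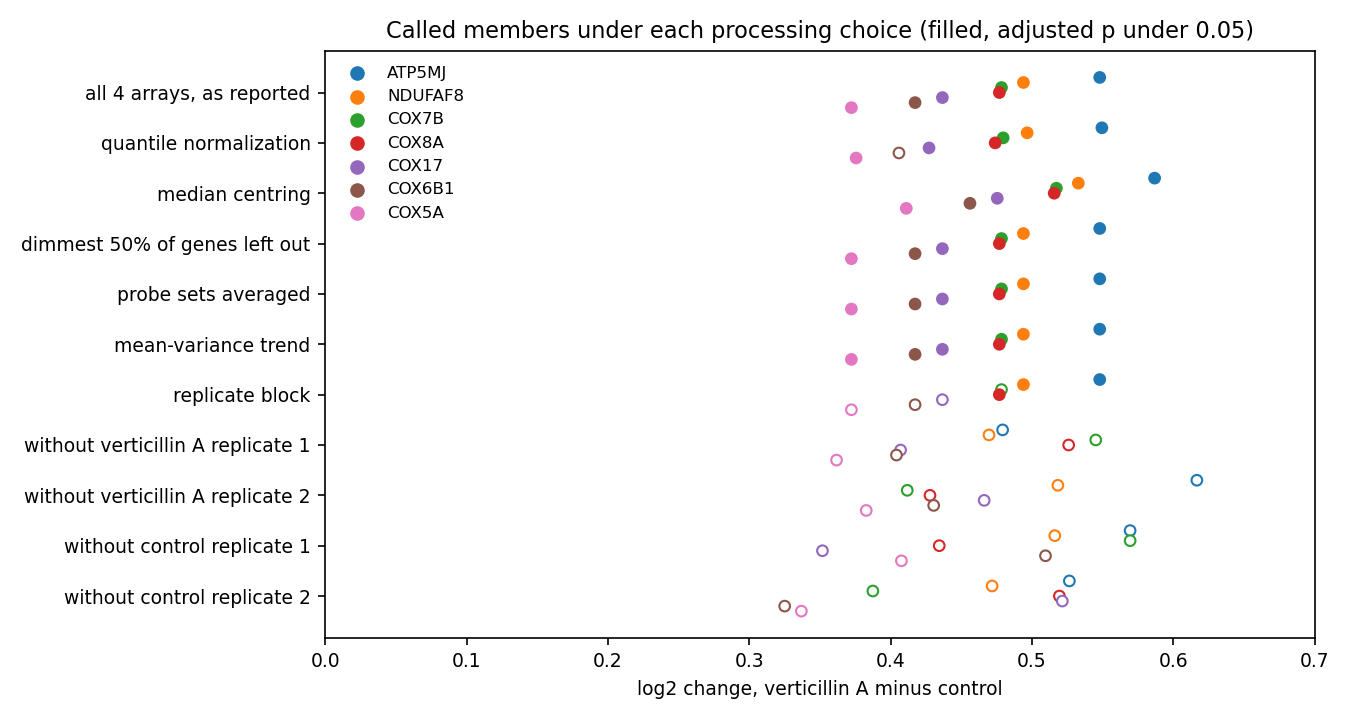
Log2 change of the 7 called genes, verticillin A minus control, under each processing choice; filled points had an adjusted p under 0.05 and open points did not. All values lie between 0.32 and 0.62, and the points of all 7 genes are open in each of the 4 fits that leave out an array.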

How the data were processed

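The values deposited by the authors are on a log2 scale, between 2.60 and 14.47, for 53617 probe sets on each array. GCRMA was used per the submitters' processing notes, while version, annotation and build are not given in the sources used. Biotin-labelled cDNA was made from 250 ng of RNA, per the labels' protocols. The platform annotation names 1 gene for 16098 probe sets, and 37519 are unnamed here. All 16098 matched RefSeq (GRCh38.p14) by gene identifier, which gave current symbols and classes. A gene was represented by its probe set with the highest mean, leaving 14884 genes.

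Groups came from the sample titles. The test was limma 3.58.1 in R 4.3.3 (lmFit, eBayes, constant prior, 2 residual and 3.43 prior degrees of freedom), with no filter, adjusted over all genes at 0.05. It was also run on simulated data. The changes planted there were larger than those of the called members, so that run does not bear on calls of this size. Separate cultures are stated nowhere in the labels. The p-values therefore measure only how far these arrays differ, a spread that may be technical. With 2 arrays per group, their number limits the precision. The members, lists and rule for named genes (called members; per role, the 3 largest changes and the brightest gene; per list, up to 3 called genes) were chosen with earlier results of these data known. Further members are given as values outside that rule. Alternatives were quantile normalization, median centring, a filter on dim genes, averaged probe sets, a variance trend, a replicate block and leaving out each array.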

Additional observations from a re-analysis of the deposited data

How the results depend on the processing

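Quantile normalization left 6 of the 7 members called (COX6B1 was lost), and median centring or averaged probe sets left all 7. After median centring 750 genes were called higher and 668 lower, against 528 and 759 from the values as deposited. With the dimmest 50% of genes left out, 1070 genes were called higher and 1329 lower, and 13 members higher, among them all 7 and ATP5IF1, COX4I1, COX7A2, UQCRC2, UQCRH and UQCRHL. Fewer genes are then tested. With a mean-variance trend, 1067 genes were called higher and 1361 lower, and 12 members higher, all 7 included; the cause was not tested. The median change over members was 0.13 after median centring, which moved all genes upward alike, and 0.17 without the dim genes, which leaves 28 members.

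The replicate numbers did not pair the arrays, since deviations of same-numbered arrays correlated at 0.01. With the number as a block, which leaves fewer residual degrees of freedom, 228 genes were called higher and 364 lower, and 3 members higher (ATP5MJ, COX8A and NDUFAF8). Of the 8 called genes of the other mitochondrial lists, COA3 and POLRMT stayed called with the block.

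Leaving out 1 array assumes that the lone array of its group varies like the others. Over these fits, 0 to 52 genes were called higher and 0 to 105 lower, 0 members were called higher in each, and the median over members was 0.061 to 0.14. The 7 genes kept positive changes of 0.32 to 0.62 in all 10 alternatives, and 0 members were called lower in any of them. Without control replicate 1 or 2, 0 genes of all 14884 were called by limma, with 3715 and 3528 at an unadjusted p under 0.05. No probe-level signal or detection call was used, so what background limits in dim genes was not tested.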
